A study of Caenorhabditis elegans with 146 samples.

Results

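Single *C. elegans* gonad samples of the diakinesis segment (S4) were compared with single -3 and -2 oocytes. The oocytes were pooled as 1 side. Members were the libraries that the deposited quality table marks as used and whose sample label gives S4, the -3 oocyte (F3) or the -2 oocyte (F2). They were 30 of the 146 samples of the series: 11 of S4, 6 of -3 oocytes and 13 of -2 oocytes. Another 7 samples with these labels, 5 of S4 and 2 of -2 oocytes, were not marked as used. The full series holds gonad segments S1 to S4, oocytes -3 to -1 and the zygote (P0), with 104 used libraries over these 8 stages. All worms were gravid, well-fed hermaphrodites of strain AZ212, which carries a histone H2B::GFP fusion driven by the germline promoter *pie-1*, in S4 and oocyte samples alike. The S4 libraries came from 11 worms and the 19 oocyte libraries from 16 worms, and 3 worms gave both a -3 and a -2 oocyte. A total of 7 worms gave both an S4 and an oocyte library. The samples fall into batch A (9 of S4, 4 of -3 and 10 of -2) and batch B (2, 2 and 3), which the study made mostly with different library protocols. Each change given is the log2 fold change of oocytes minus S4, so a value below 0 means a smaller share of the counted RNA in the oocytes.

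The hermaphrodite gonad is a tube in which germ cells divide at the distal end, pass through the stages of meiotic prophase and grow into oocytes as they move proximally. In late diplotene and diakinesis an oocyte takes up cytoplasm and yolk, its chromosomes condense and its own transcription falls silent, so that RNA loaded earlier supports the egg and the early embryo. The -3 and -2 oocytes are the last but 2 and last but 1 cells in the row before the spermatheca, and they lie under contractile sheath cells, which the study harvested together with segments and oocytes. Ribosomal proteins form the small and the large subunit of the ribosome with rRNA, and their mRNAs are among the most abundant of growing cells.

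Reads counted on genes ranged from 2.1 to 5.1 M in S4 and from 2.21 to 21.1 M (M, 1e6 reads) in the oocytes. The number of genes at a TPM of at least 1 was 4630 to 9019 in S4 (median 8085) and 5017 to 8283 in the oocytes (median 7869). Within batches the oocytes had 62.5 fewer genes, which was not distinguishable (permutation of side within batch, two-sided, p = 0.752). None of 12 quality measures passed after Benjamini-Hochberg adjustment. The lowest adjusted p, 0.136, was shared by the shares of reads on coding sequence (3.63 points lower in oocytes), on UTRs and on introns and by the share of sperm genes. The S4 library of worm J in batch B stood apart, with the 4630 genes, a sperm gene share of 0.387% and a ribosomal protein share of 41.0% of reads. Levels are CPM, counts per 1e6 reads after scaling each library by its TMM factor, so the levels of 1 library need not sum to 1e6. In S4 of batch B the ribosomal protein genes alone summed to up to 1810595 CPM. The summed level of 5 oocyte markers (*oma-1*, *oma-2*, *rme-2*, *puf-5*, *lin-41*) was 5933 to 9993 CPM in S4 of batch A and 5720 to 10563 in the oocytes of that batch, so the libraries match their label as oocyte tissue. Markers of the distal tip cell and body wall muscle stayed under 5 CPM in sum in every library, and *elt-2* (intestine) and *dpy-7* (hypodermis) were at 0 in all 30.

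Of 7030 genes tested, 31 rose from S4 to the -3 and -2 oocytes and 147 fell (edgeR quasi-likelihood F test, Benjamini-Hochberg adjusted p under 0.05 and fold change above 1.5). These are 0.441% and 2.09% of the genes tested, and 1100 genes had an unadjusted p under 0.05. Much of the decline was a single class of genes, as 74 of the 147 are listed genes of cytoplasmic ribosomal proteins. A further 6 of the 147 carry such a name only in RefSeq. The median over all tested genes was 0.01. The 147 genes that fell had a median of -1.82 and the 31 that rose a median of 2.33. The X chromosome held 7 genes that rose and 1 that fell among 799 tested, and chromosome I held 1 and 44 among 1435. Chromosomes II to V held 7 and 19, 6 and 31, 6 and 31, and 4 and 21. Without the ribosomal protein genes, those 6 included, 19 fell on chromosome I, 9 to 13 on each of II to V and 1 on X. A difference between chromosomes was not tested. With worm as a block in the 16 libraries of the 7 worms that gave both sides, 3 genes rose (0.0429%) and 60 fell (0.858%). Leaving out 1 library at a time gave 18 to 53 genes that rose, with 52 without -2 worm C, 53 without -2 worm 32, 18 without -2 worm 28, 20 without -2 worm 25 and 20 without S4 worm 20. Without S4 worm J 35 rose and 106 fell, and 95 of these 106 were among the 147.

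Ribosomal protein mRNAs were less abundant in the oocytes than in S4, by a median of 3.92 times over the genes that fell. Of 81 listed genes 79 were tested and 74 fell, against 2.09% of all tested genes, with changes of -2.42 to -1.14 among those 74 (median over the 79, -1.95). All 33 genes of the small subunit and 41 of 46 genes of the large subunit fell. As a sample is a whole segment or a single cell, fewer copies of these mRNAs per cell and more of all other RNA cannot be told apart. In batch A alone 72 of the 79 fell (median -1.56), and the median in batch B was -2.52. Without the S4 library of worm J 69 fell (median -1.58), and with worm as a block 53 fell (median -1.66). With spike-in scaling, in which the median over all genes moved to 0.23, the median was -1.41 and 0 passed with edgeR.

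**Figure D1:**
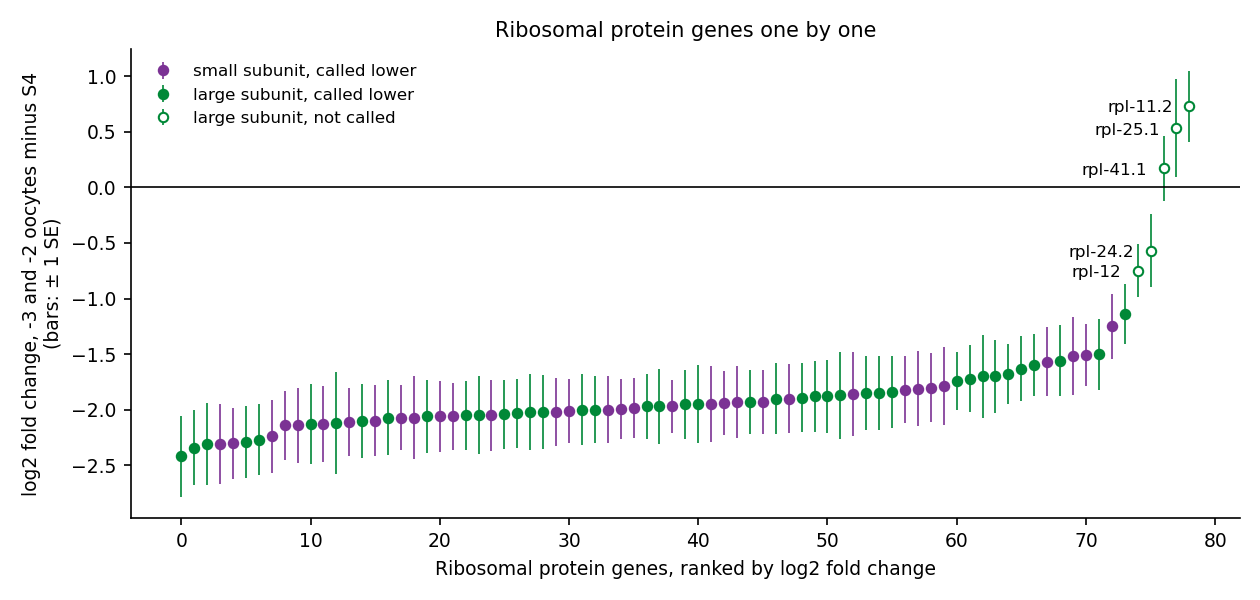
Log2 fold change (oocytes minus S4) of each of the 79 tested ribosomal protein genes, ranked, with bars of 1 standard error from edgeR. Filled points fell and open points did not pass. The 74 filled points lie between -2.42 and -1.14, and the 5 open points, all of the large subunit, lie above them.

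The gene with the smallest adjusted p was *rps-12* (WBGene00004481, WBcel235 chromosome III, 5679298 to 5680187), a protein of the small subunit. Its level in the 9 S4 libraries of batch A was 173 to 496 CPM (median 266), and in the 14 oocytes of that batch 48.8 to 163 CPM (median 83.1). In batch B it was 5419 and 21244 CPM in S4, 1128 and 1631 in the -3 oocytes, and 3325, 3882 and 1569 in the -2 oocytes. The sides did not overlap in either batch. The change was -1.97 ± 0.24 (SE, 11 and 19 libraries, edgeR adjusted p = 1.13e-05). In batch A only 4 genes had oocyte levels wholly below S4 (0.0569% of those tested) and 0 wholly above, and *rps-12* was the only ribosomal protein gene among them. Another of the 4 was *spe-39*, a gene of vesicle traffic named here after its values were seen, at 132 to 233 CPM in S4 and 48.4 to 126 in the oocytes (-1.55 ± 0.28, edgeR adjusted p = 0.000292).

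*rpl-22* (chromosome II, 5055616 to 5056214), of the large subunit, had the largest decline among the ribosomal protein genes. In batch A its level was 45.4 to 283 CPM in S4 (median 117) and 12.4 to 97.8 in the oocytes (median 29.5). S4 of worms 28, 26 and 34, at 45.4, 47.3 and 88.9 CPM, lay below the highest oocyte. Batch B had 3145 and 30338 CPM in S4 and 835 to 2370 in the oocytes, without overlap. The change was -2.42 ± 0.36 (edgeR adjusted p = 4.40e-05). Other large subunit genes with close values were *rpl-14* (-2.29 ± 0.32), *rpl-9* (-2.27 ± 0.32), *rpl-39* (-2.31 ± 0.37) and *rpl-31* (-1.97 ± 0.29). In the small subunit *rps-21* changed by -2.31 ± 0.36 and *rps-16* by -2.30 ± 0.32. Genes of the list with other roles on the ribosome fell with them: *rla-0*, the base of the stalk, by -1.74 ± 0.26, *rack-1*, a scaffold on the small subunit, by -1.93 ± 0.32, and *ubl-1*, which fuses a ubiquitin-like domain to a ribosomal protein, by -2.06 ± 0.30. The list takes genes by symbol, and 6 more genes carry a ribosomal protein name only in RefSeq. All 6 fell (median -2.05), among them *ubq-2*, a ubiquitin and ribosomal protein fusion, by -1.85 ± 0.30. The worm block ended the calls of *rps-21* (-1.82, edgeR adjusted p = 0.0589), *rpl-39* (-1.84, adjusted p = 0.107) and *ubq-2* (-1.50, adjusted p = 0.101).

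The 5 ribosomal protein genes that did not pass included both listed copies on the X chromosome. *rpl-11.2* (chromosome X, 2241738 to 2242618) stood at 24.8 to 82 CPM in S4 of batch A (median 46.6) and at 20.5 to 122 in its oocytes (median 66.2). In batch B it was at 320 and 121 CPM in S4 and at 507 to 1452 in the oocytes, all above S4. The change was 0.73 ± 0.32 (edgeR adjusted p = 0.261). Its autosomal copy *rpl-11.1* (chromosome V, 3585312 to 3586064) was at 84.2 to 576 CPM in S4 of batch A (median 231) and at up to 100 CPM in the oocytes (median 42.7), and changed by -2.34 ± 0.34 (edgeR adjusted p = 3.78e-05). Its S4 libraries of worms 26 and 28, at 84.2 and 94.1 CPM, lay below the highest oocyte of batch A, and in batch B S4 at 3736 and 16313 CPM overlapped with oocytes at 1215 to 5823. The other X-linked copy, *rpl-25.1*, changed by 0.53 ± 0.44 and its autosomal copy *rpl-25.2* by -1.89 ± 0.31 (-1.61 with worm as a block, edgeR adjusted p = 0.0531). Counts of such near-identical copies depend on how the counting assigned reads that fit both, so their levels are uncertain. *rpl-12* changed by -0.75 ± 0.24 (edgeR adjusted p = 0.0889), with 3624 to 6607 CPM in S4 of batch A and 1748 to 5997 in its oocytes. *rpl-41.1* changed by 0.17 ± 0.29, and *rpl-24.2*, which RefSeq names *rsl-24D1* after a ribosome assembly factor, by -0.57 ± 0.33.

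**Figure D2:**
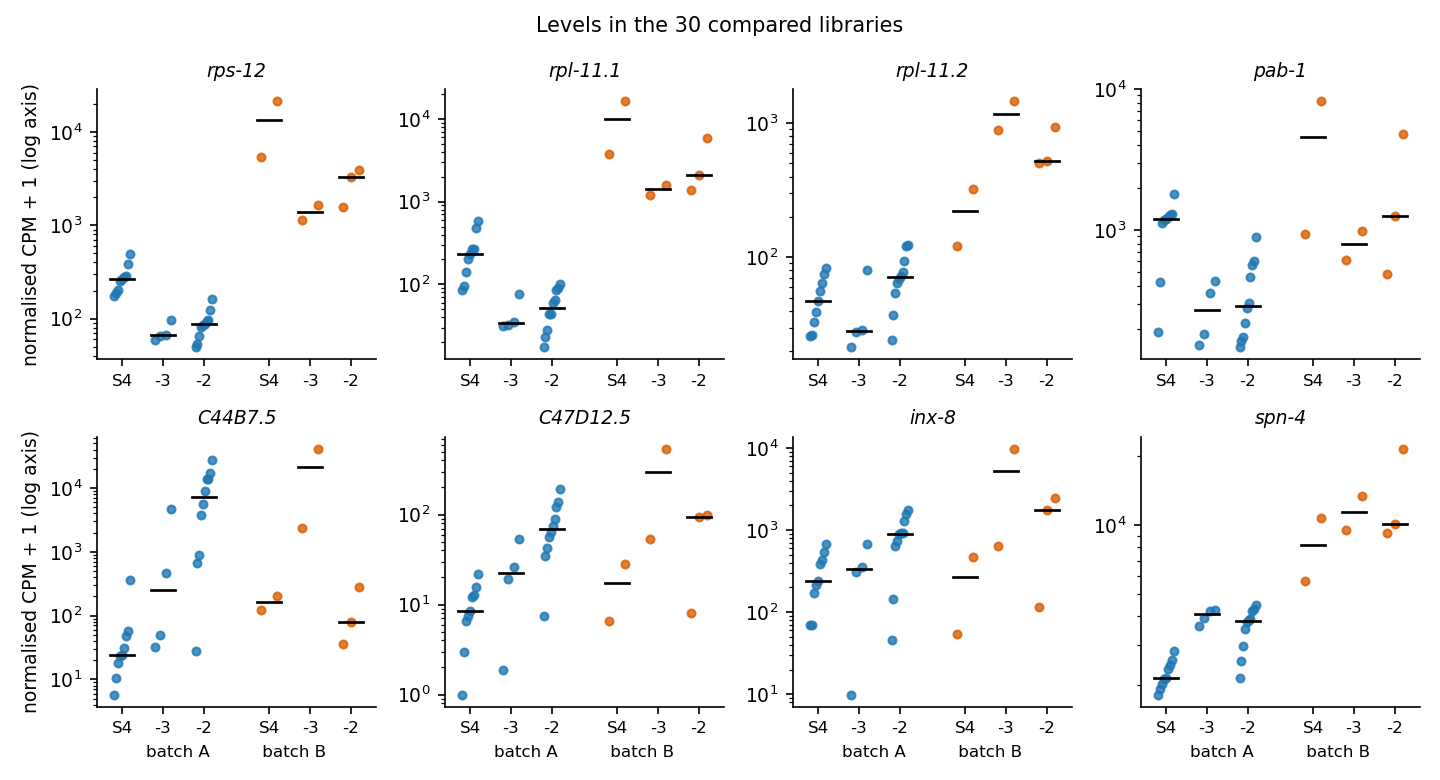
Levels in the 30 libraries of 8 genes (normalised CPM plus 1, log axis) by stage and batch, with 1 point per library and a black line at the median. In batch A the S4 points of *rps-12* (173 to 496 CPM) lie above all oocyte points, those of *rpl-11.2* overlap with them, and *C44B7.5* spans 26.6 to 27347 CPM in the -2 oocytes.

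The share of all reads that fell on ribosomal protein genes gives the same quantity per library. It is a description, as the genes were known to differ. In batch A it was 1.43% to 6.55% in S4 (median 3.04%), 0.948% to 1.3% in the -3 oocytes (median 1.03%) and 0.706% to 2.21% in the -2 oocytes (median 1.29%). The S4 libraries of worms 26 (1.43%) and 28 (1.67%) were the only ones within the oocyte range. In batch B the share was 19.8% and 41.0% in S4, 8.19% and 8.98% in the -3 oocytes and 19.5%, 14.7% and 6.95% in the -2 oocytes. The highest oocyte, of worm C, was thus just under the lower S4 library. In each of the 7 worms that gave both sides the S4 library had the higher share, for example 5.19% and 1.56% (-2) in worm 2, 1.67%, 1.07% (-3) and 1.05% (-2) in worm 28, and 41.0% and 8.98% (-3) in worm J. The Wilson 95% intervals of these shares reach at most 0.05 points to either side, which covers counting error only. Over the whole series the median share in batch A was 27% in S1, 20.1% in S2, 8.82% in S3, 0.913% in the -1 oocyte and 0.781% in P0. In batch A the medians thus fell at each step from S1 to the -3 oocyte, and from there to P0 they lay between 0.781% and 1.29%. In batch B, with 2 to 5 libraries a stage, they were 46.6% in S1, 49.4% in S2, 29.8% in S3, 30.4% in S4, 8.59% in the -3, 14.7% in the -2 and 5.82% in the -1 oocyte and 8.63% in P0, so that they did not fall at every step.

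**Figure D3:**
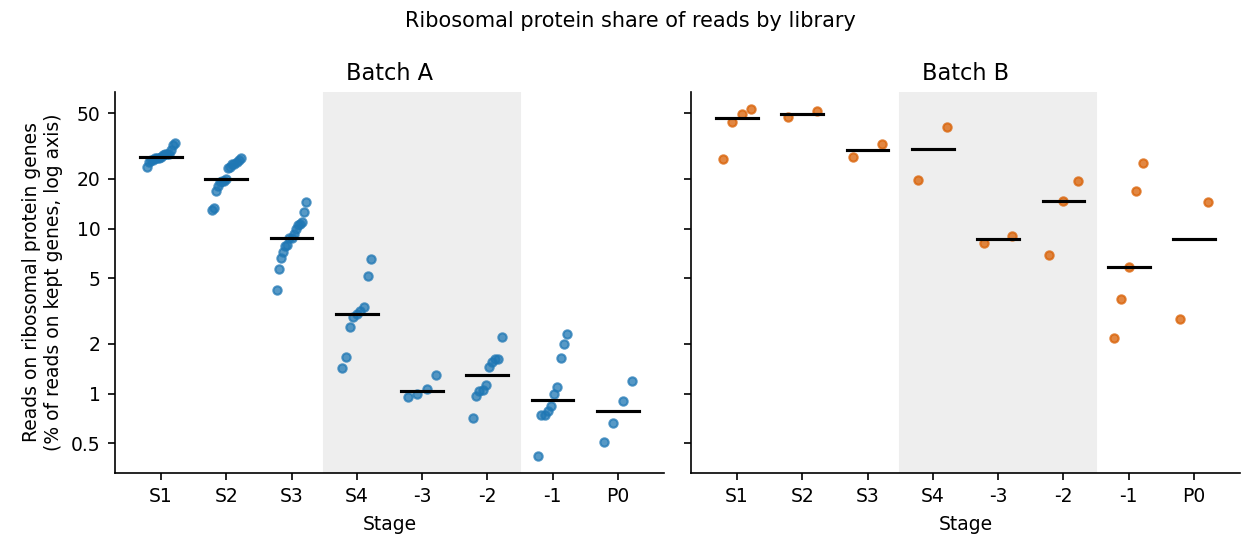
Share of reads on ribosomal protein genes (percent of reads on kept genes, log axis) in each of the 104 used libraries by stage, in batch A and batch B, with black lines at the medians and the compared stages shaded. In batch A the median goes from 27% in S1 to 3.04% in S4 and 1.03% in the -3 oocyte, and batch B has higher shares at every stage.

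The 74 ribosomal protein genes that fell are short, with a median exonic length of 532 bases. Of all 6943 other tested genes 67 fell. Of the 1736 of these with up to 1020 bases (median 737) 19 fell, and their median change was 0.06. Of the 143 of the 1736 whose average log2 CPM was 8 or more (median length 780 bases), 4 fell, with a median of 0.00. Both sets are longer than the ribosomal protein genes, and an effect of length was not tested.

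In the other lists of the translation machinery, counts of genes that fell are to be read against the 2.09% of all tested genes. That share includes the ribosomal protein genes, and of 6943 other tested genes 67 fell. At an unadjusted p under 0.05, 632 of all 7030 tested genes were lower, and DESeq2 called 288 lower. Of 27 translation initiation factors 2 fell and 0 rose, with a median of -0.25. One was *pab-1*, the poly(A) binding protein, at 187 to 1797 CPM in S4 of batch A (median 1203) and 147 to 897 in its oocytes (median 289). In that batch only S4 of worms 26 (187 CPM) and 28 (424 CPM) lay in the oocyte range, and the change was -1.65 ± 0.42 (edgeR adjusted p = 0.0204). The other was *iff-1*, a germline eIF5A, which went from a median of 99.2 to 54.2 CPM in batch A and changed by -1.18 ± 0.19 (edgeR adjusted p = 0.000115). None of 8 elongation factors passed with edgeR (2 with an unadjusted p under 0.05, 1 with DESeq2), and *eef-1A.1*, which carries tRNAs to the ribosome, changed by -0.38 ± 0.24. Among 30 genes of the nucleolus and of ribosome assembly 2 fell: *lpd-7*, the Pescadillo homologue, by -1.18 ± 0.25, and *puf-12* by -1.14 ± 0.29. The rRNA methyltransferase *fib-1* changed by 0.09 ± 0.24. *icd-2*, a subunit of the nascent polypeptide associated complex that is in no list and was named after its values were seen, fell by 1.28 on the log2 scale. None of these 5 genes passed with worm as a block, with changes of -1.37 for *pab-1* (edgeR adjusted p = 0.0531), -1.05 for *iff-1* (0.062), -1.18 for *lpd-7* (0.0614), -0.84 for *puf-12* (0.735) and -0.95 for *icd-2* (0.218). Without S4 worm J *iff-1* and *icd-2* passed, and *pab-1* (-1.43, edgeR adjusted p = 0.11), *lpd-7* (-0.80, 0.0643) and *puf-12* (-0.62, 0.304) did not.

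Mitochondrial ribosomal proteins, which are made in the cytoplasm but serve the ribosome of the organelle, were a further list. Of 63 tested 3 fell (2.09% of all tested genes fell), *mrpl-47* (-0.81 ± 0.22), *mrpl-50* (-0.75 ± 0.21) and *mrps-11* (-0.95 ± 0.27), and their median was -0.17. The 3 did not pass with worm as a block (edgeR adjusted p of 0.585 to 0.757) or without S4 worm J (0.132 to 0.219). Of 38 nuclear genes of the respiratory chain 0 passed with edgeR (5 lower at an unadjusted p under 0.05, 0 with DESeq2), with a median of -0.21. The 33 proteasome subunits had a median of 0.03 and the 18 chaperones one of -0.15, with 0 called by edgeR or DESeq2 in either list (3 and 2 lower at an unadjusted p under 0.05). Of all 7030 tested genes 632 were lower at an unadjusted p under 0.05, and DESeq2 called 288 lower.

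**Figure D4:**
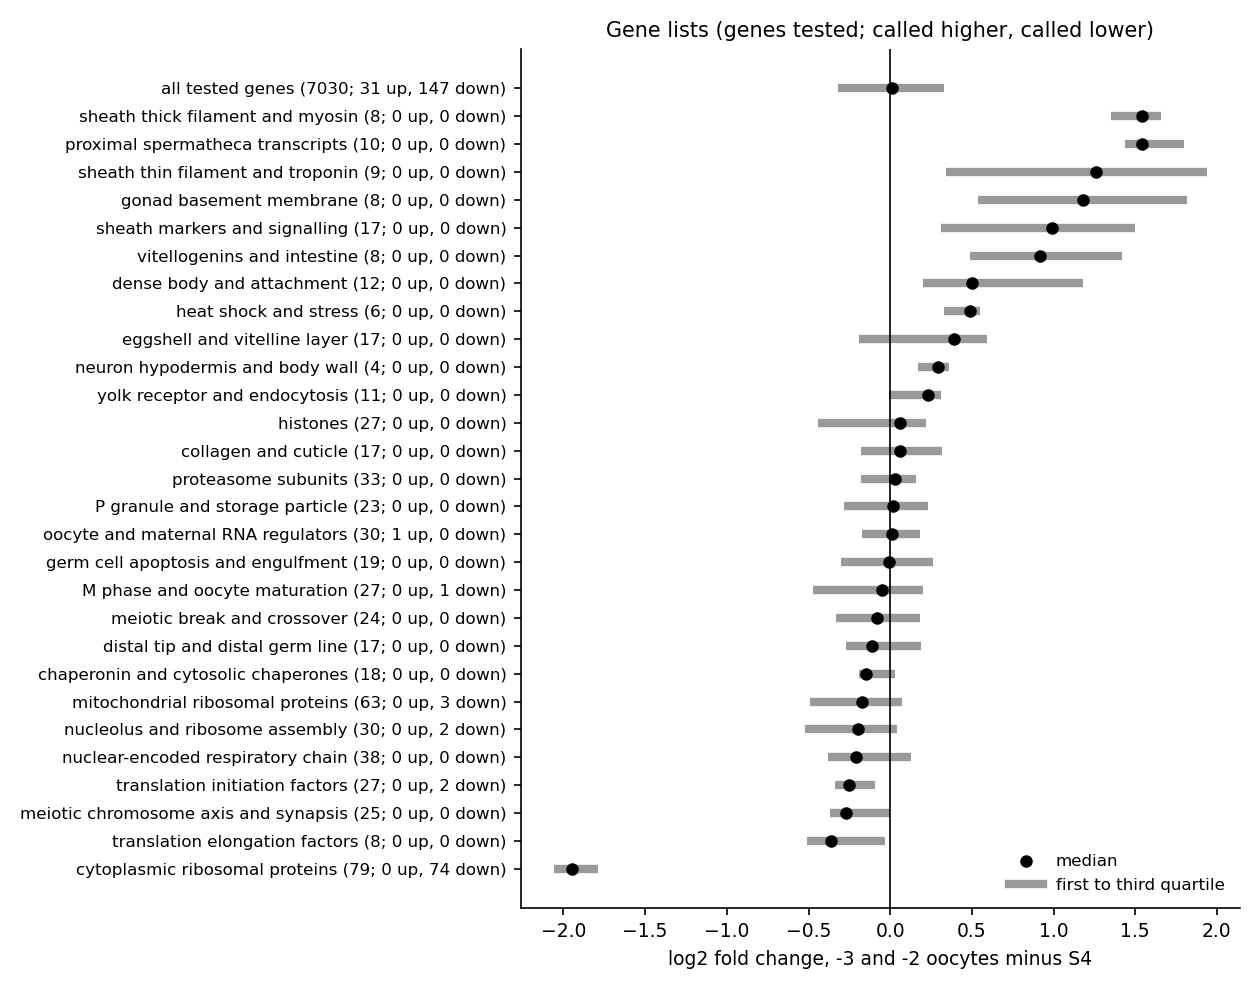
Median log2 fold change (oocytes minus S4, black points) and the range between the quartiles of the genes (grey bars) in each gene list, with the number tested and called beside its name. The cytoplasmic ribosomal proteins (median -1.95) stand alone at the left, the sheath lists lie between 0.50 and 1.54, and all 7030 tested genes have a median of 0.01.

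The 31 genes that rose had changes of 0.59 to 6.80, and those with the largest changes were low in S4. *C44B7.5* (WBGene00016627, chromosome II, 6871402 to 6872593) rose most. In batch A it was at 4.79 to 355 CPM in S4 (median 23.3), at 48.9, 459, 31.3 and 4701 in the -3 oocytes and at 26.6 to 27347 in the -2 oocytes (median 7278). All but 1 of the -2 oocytes of batch A (worm 32, at 26.6 CPM) were above every S4 library, and the -3 oocytes overlapped with S4. Batch B had it at 203 and 120 CPM in S4, at 41067 and 2363 in the -3 oocytes and at only 34.7, 284 and 79.5 in the -2 oocytes, so the sides overlapped. The change was 6.80 ± 1.32 (edgeR adjusted p = 0.00163) and kept its call without each library in turn (6.11 to 7.95). *C47D12.5* (chromosome II, 11683479 to 11685277) went from 0 to 20.6 CPM in S4 of batch A (median 7.43) to 0.893 to 191 in its oocytes (median 54.2), with overlap, and rose by 3.26 ± 0.67 (edgeR adjusted p = 0.00203). Neither passed with worm as a block, at 5.79 for *C44B7.5* (edgeR adjusted p = 0.067) and 2.99 for *C47D12.5* (adjusted p = 0.136).

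Further genes that rose were *efn-4*, an ephrin (3.39 ± 0.90), *pkg-2*, a cGMP-dependent protein kinase (2.86 ± 0.75), *lbp-3*, a fatty acid binding protein (2.77 ± 0.74), the pseudogene WBGene00023209 (3.06 ± 0.73), *F39H12.3* (2.53 ± 0.65) and *F46H5.7* (2.44 ± 0.68). Their medians in S4 of batch A lay between 1.91 and 9.55 CPM and in the oocytes between 8.07 and 31.9, and the sides of each overlapped. Leaving out single libraries ended the call of *F46H5.7* in 19 of 30 fits, of *lbp-3* in 7, of *efn-4* in 6, of *pkg-2* in 4 and of *F39H12.3* in 3. Genes with very low S4 levels, named after their values were seen, were *R10E4.6* (5.02 ± 1.03), *hpo-15* (5.62 ± 1.32), the transcription factor genes *mbr-1* (4.32 ± 1.15) and *lim-6* (3.87 ± 1.06), and *C06A12.3* (4.24 ± 1.16). At these counts a fitted fold change depends on the prior count and is no measure of size. Among these genes only *R10E4.6* and *lim-6* passed with worm as a block (edgeR adjusted p = 0.0408 and 0.0476), and the other adjusted p ranged from 0.0711 for *C06A12.3* to 0.807 for *F39H12.3*, while *mbr-1* did not pass the low-count filter of that fit. Without S4 worm J *efn-4*, WBGene00023209, *R10E4.6* and *hpo-15* passed, and the other 7 genes did not (edgeR adjusted p of 0.0548 to 0.109).

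In batch A, levels of the genes that rose most were higher again in the -1 oocyte and low after fertilisation. On a scale common to the 104 used libraries, batch A medians of *C44B7.5* were 21.9 CPM in S4, 224 in the -3, 6323 in the -2 and 13779 in the -1 oocyte, and 5.76 in P0. For *F46H5.7* they were 8.65, 10.8, 17.6, 40.8 and 1.61 CPM, and for *lbp-3* 3.26, 4.66, 10.2, 13.4 and 0.445 CPM. All 8 genes with the largest increase had their highest batch A median in the -1 oocyte and a P0 median under 6 CPM. Batch B, with 2 to 5 libraries a stage, had another order. There 7 of the 8 genes had their highest median in the -3 oocyte and *lbp-3* in the -2 oocyte, as *C44B7.5* with 132 CPM in S4, 18720 in the -3, 69.7 in the -2 and 1499 in the -1 oocyte and 0.108 in P0, and P0 medians reached 7.96 CPM (WBGene00023209).

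Transcripts of the gonadal sheath, the contractile cells around the oocytes, mostly had changes above 0 but did not pass the test. In batch A the summed level of their markers lay higher in the -2 oocytes but hardly in the -3 oocytes. All 7 tested of 8 sheath markers had changes above 0 and 0 were called with edgeR. The innexin *inx-8*, a gap junction protein through which sheath cells couple to oocytes, was at 69.3 to 683 CPM in S4 of batch A (median 241) and at 8.93 to 1751 in its oocytes (median 705). Both ends of the oocyte range lay outside that of S4. In batch B it was at 474 and 53.4 CPM in S4 and at 116 to 9757 in the oocytes, with overlap. The change was 1.82 ± 0.65 (edgeR adjusted p = 0.153). For its partner *inx-9* the change was 2.1 ± 0.65 (adjusted p = 0.0836), for the troponin T *mup-2* 1.94 ± 0.56 (adjusted p = 0.0537) and for the troponin C *pat-10* 2.46 ± 0.74 (adjusted p = 0.0714), all with edgeR. The lists around these genes had medians of 1.26 (thin filament and troponin, 9 tested), 1.54 (thick filament and myosin, 8), 0.50 (dense body and attachment, 12), 0.99 (sheath markers and signalling, 17) and 1.18 (gonad basement membrane, 8). With the -3 and -2 oocytes as separate groups over both batches, the medians against S4 were 1.33, 1.48, 0.43, 1.00 and 0.93 at -3. At -2 they were 1.22, 1.40, 0.51, 0.89 and 1.44. edgeR called 0 genes in these lists, DESeq2 2, 1, 1, 3 and 3, and 4, 2, 3, 5 and 4 were higher at an unadjusted p under 0.05. Of all 7030 tested genes DESeq2 called 135 higher, and 468 were higher at an unadjusted p under 0.05. *tbh-1*, which makes octopamine and is known from the sheath and from neurons, rose by 2.09 ± 0.59 (edgeR adjusted p = 0.0485), and leaving out single libraries ended that call in 19 of 30 fits, that without S4 worm J included, as did worm as a block (1.65, edgeR adjusted p = 0.559).

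Sheath markers and *C44B7.5* were set side by side in each library. In most libraries *inx-8* made up most of the summed marker level, for example 925 of 1114 CPM in the -2 oocyte of worm 2. The summed level of the 8 sheath markers was 85.5 to 844 CPM in S4 of batch A (median 334) and 15.5 to 2016 in the oocytes of that batch (median 959). Within these oocytes it was 15.5 to 890 CPM at -3 (median 387) and 51.2 to 2016 CPM at -2 (median 1102). The lowest of the -2 oocytes in this sum, worm 32 with 51.2 CPM, also had the lowest *C44B7.5*, as did worm 27 (15.5 CPM) among the -3 oocytes of batch A. In batch B the -3 oocyte of worm H had the highest of all sums, 12360 CPM, and the highest *C44B7.5*. Other libraries did not follow this order. The -2 oocytes of worms F and G had the highest sums of that stage (2889 and 2438 CPM) with *C44B7.5* at 284 and 79.5 CPM, and worm 31 had the highest -2 sum of batch A (2016 CPM) with *C44B7.5* at 5542 CPM, below the median. In S4 worm 2 had the highest sum (844 CPM) and the lowest *C44B7.5* (4.79 CPM). The study has *C44B7.5* and *tbh-1* in a cluster that was enriched for muscle genes. For genes of that cluster it reports in situ staining around proximal oocytes and proposes that they may come mainly from the sheath. The part of sheath RNA in the genes that rose was not tested here.

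Other neighbours of the oocytes showed no gene that passed. Transcripts the study ascribed to the spermatheca were chosen on these samples, so their direction is no independent evidence. Of 25 listed 10 were tested and all 10 lay above 0 (median 1.54), with 0 called by edgeR or DESeq2 and 0 at an unadjusted p under 0.05. Their median was -0.82 in the -3 and 2.26 in the -2 oocytes, each against S4. The summed level of the list did not follow these fitted changes in most libraries. In batch A it was 1.09 to 1867 CPM in S4 (median 141) and 4.23 to 8913 in the oocytes (median 47.1). In batch B it was 47.9 and 209 CPM in S4 and 4.35 to 456 in the oocytes (median 31.3). Vitellogenins and intestine genes were in a list of their own (8 tested, median 0.92, -1.20 in the -3 and 1.22 in the -2 oocytes, 0 called by either tool and 0 at an unadjusted p under 0.05). Vitellogenins are made in the intestine and not in oocytes, and the summed level of 5 intestine markers was 4.52 to 51.4 CPM in S4 of batch A and 6.67 to 267 in its oocytes. In batch B this sum was 23.9 and 201 CPM in S4 and 1.45 to 1211 in the oocytes. The part of such RNA in these medians was not tested.

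Among 30 maternal RNA regulators of the oocyte itself 1 rose and 0 fell (0.441% and 2.09% of all tested genes), with a median of 0.01. This was *spn-4*, an RNA-binding protein that controls translation of maternal mRNAs in the early embryo (chromosome V, 6783187 to 6784903). In batch A its level was 1823 to 2810 CPM in S4 (median 2143) and 2151 to 4480 in the oocytes (median 3879). Only the -2 oocytes of worms 32 (2151 CPM) and 30 (2552 CPM) lay within the S4 range. Batch B had it at 10701 and 5729 CPM in S4 and at 9217 to 21504 in the oocytes, with overlap, and the change was 0.74 ± 0.17 (edgeR adjusted p = 0.0117). *rsp-3*, an SR splicing factor named after its values were seen, rose by 0.72 ± 0.18 (edgeR adjusted p = 0.0233). With worm as a block *spn-4* was at 0.65 and *rsp-3* at 0.69, neither passing (edgeR adjusted p = 0.455 for both). The translational repressors *oma-2* (0.36 ± 0.19), *puf-5* (-0.15 ± 0.17) and *lin-41* (-0.16 ± 0.21) and the yolk receptor *rme-2* (0.10 ± 0.37) did not pass.

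The eggshell list, with proteins laid down around the egg at fertilisation, had 17 tested genes and a median of 0.39, with 0 called by edgeR, 1 by DESeq2 and 4 higher at an unadjusted p under 0.05. The chondroitin proteoglycans *cpg-1* and *cpg-2* changed by 0.85 ± 0.31 and 0.74 ± 0.25 (edgeR adjusted p = 0.157 and 0.117). In the lists of P granules (23 tested, median 0.02), chromosome axis and synapsis (25, -0.27), breaks and crossovers (24, -0.08), apoptosis and engulfment (19, -0.01), histones (27, 0.06), yolk uptake and endocytosis (11, 0.23) and distal germ line genes (17, -0.11) edgeR called 0. DESeq2 called 1, 0, 0, 2, 0, 0 and 0 of them, and 1, 4, 4, 3, 3, 2 and 2 had an unadjusted p under 0.05. Of all 7030 tested genes DESeq2 called 135 higher and 288 lower. At an unadjusted p under 0.05, 468 of the 7030 were higher and 632 lower. The lists of heat shock and stress genes (6, median 0.49), collagen and cuticle genes (17, 0.06) and neuron, hypodermis and body wall genes (4, 0.29) had 0 called by either tool, with 2, 1 and 0 at an unadjusted p under 0.05. None of the 54 listed sperm genes was tested. Each was dropped before the fit as correlated with msp genes or did not pass the low-count filter. Listed sperm genes summed to 124 and 2500 CPM in S4 of batch B and to 0 to 66.4 CPM in its oocytes. In batch A they summed to at most 2.73 CPM in S4 and 20.2 CPM in the oocytes.

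Among the genes that fell and are not ribosomal, several act on the meiotic spindle or the kinetochore. Except for *bub-1* they belong to no list and were named after their values were seen, so they are single results. *mesp-1*, a protein of the acentrosomal meiotic spindle, was at 263 to 684 CPM in S4 of batch A (median 463) and 61.4 to 355 in its oocytes (median 161). In batch B it was at 6116 and 6053 CPM in S4 and 989 to 2685 in the oocytes, without overlap, and the change was -1.37 ± 0.22 (edgeR adjusted p = 9.25e-05). The kinesin *klp-16* changed by -1.44 ± 0.29, the midzone protein *spd-1* by -1.39 ± 0.35, the centromere proteins *knl-2* and *hcp-4* by -1.03 ± 0.27 and -0.96 ± 0.27, *scc-3*, a cohesin subunit, by -0.81 ± 0.20 and *lin-5*, the NuMA homologue, by -0.67 ± 0.17. Of the 27 tested genes of M phase and oocyte maturation 1 fell and 0 rose (median -0.05), against 2.09% and 0.441% of all tested genes. It was the checkpoint kinase *bub-1* (-0.76 ± 0.21, edgeR adjusted p = 0.0479), whose call ended in 22 of 30 fits without 1 library. With worm as a block *mesp-1* passed (-1.14, edgeR adjusted p = 0.0374) and the other 7 genes did not (adjusted p of 0.345 to 0.824). The same 7 did not pass without S4 worm J (0.0502 for *klp-16* to 0.326 for *hcp-4*), while *mesp-1* did. *cyb-3*, a cyclin B, changed by 0.40 ± 0.16 (edgeR adjusted p = 0.195).

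Outside these groups the largest declines named by the rule were 2 pseudogenes and *nmad-1*. WBGene00017933 was at 66.1 to 206 CPM in S4 of batch A and 3.05 to 116 in its oocytes (-2.52 ± 0.48, edgeR adjusted p = 0.000737), and was at most 7.68 CPM in batch B. WBGene00014987 was at 10.0 to 61.4 CPM in S4 of batch A and 0 to 14.1 in its oocytes (-2.35 ± 0.64, edgeR adjusted p = 0.0359), and its change in batch B alone was 0.66. *nmad-1*, a demethylase of the AlkB family, changed by -2.34 ± 0.56 (edgeR adjusted p = 0.013). With worm as a block WBGene00017933 passed (adjusted p = 0.0374) and the other 2 did not (WBGene00014987 at -2.08, *nmad-1* at -1.38, edgeR adjusted p = 0.562 and 0.821). The call of *nmad-1* rests on S4 of worm J, with 503 CPM against 0 to 26.7 in the other S4 libraries, and without it the change was -1.37 (edgeR adjusted p = 0.328). That of WBGene00014987 ended in 14 of 30 fits without 1 library. Reads of pseudogenes cannot be fully told apart from those of their parent genes.

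The -3 and -2 oocytes were also set against S4 one by one in a single fit with 3 groups, which share the S4 libraries. From S4 to the -3 oocyte 7 genes rose (0.0996%) and 94 fell (1.34%), and from S4 to the -2 oocyte 20 rose (0.284%) and 99 fell (1.41%). Of the 79 ribosomal protein genes 73 fell in the first (median -2.39) and 70 in the second (median -1.77). Between the -2 and the -3 oocyte edgeR called 0 genes, with 173 at an unadjusted p under 0.05, and the ribosomal protein median was 0.62 higher in the -2 oocyte. The change of *C44B7.5* was 6.24 in the -3 oocyte (adjusted p = 0.0279) and 7.04 in the -2 oocyte (adjusted p = 0.00399), that of *spn-4* 0.77 and 0.72 (adjusted p = 0.0913 and 0.0352) and that of *rps-12* -2.34 and -1.81 (adjusted p = 0.000654 and 0.00042). With 6 libraries of the -3 oocyte, differences between the oocytes of this size were not detectable.

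Within batch A, 125 genes rose (1.76%) and 191 fell (2.69%), and 25 of the 31 and 115 of the 147 genes called over both batches were among them. Within batch B, with 2 S4 libraries, edgeR called 0 genes in either direction and 819 had an unadjusted p under 0.05. Of the genes that rose and had a value in both batches, 28 of 28 had the same direction in both, and of those that fell 139 of 143. These genes were called on the libraries of both batches together. Agreement of direction thus follows partly from how they were chosen and is no replication between batches. In batch B all oocyte levels lay below both S4 levels in 5.31% of the genes tested and above them in 3.37%. A test of the difference between the batches called 353 genes as more positive in batch B (5.02%) and 700 as more negative (9.96%), among the latter 3 ribosomal protein genes. Batch B holds only 2 S4 libraries, of which worm J stands apart, so batch, library protocol and this library cannot be told apart in these differences.

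**Figure D5:**
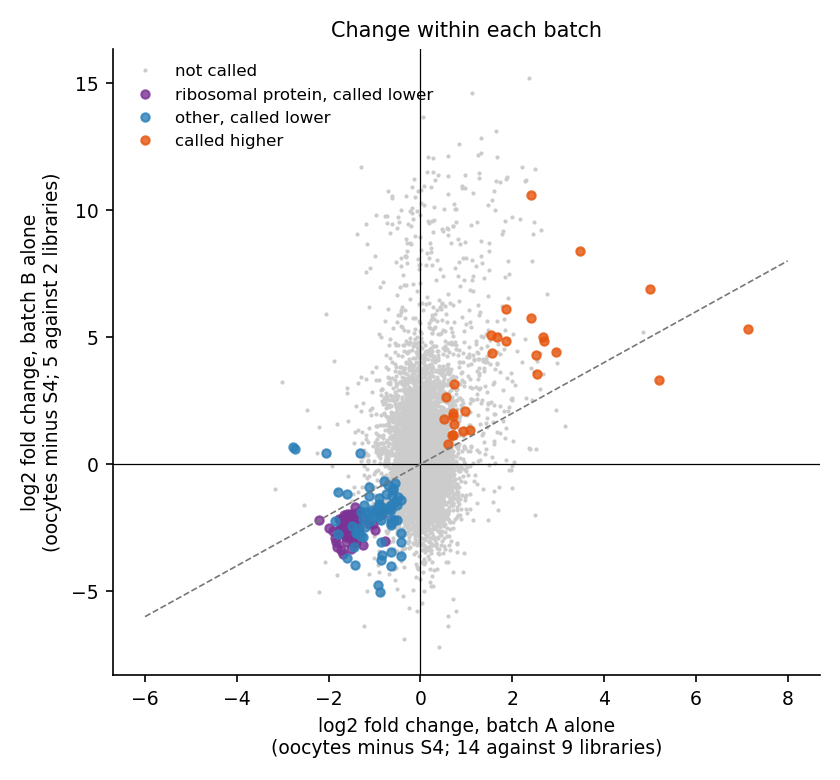
Log2 fold change (oocytes minus S4) within batch A (horizontal, 14 against 9 libraries) against that within batch B (vertical, 5 against 2 libraries), with 1 point per gene and a dashed line of equal change. The 74 ribosomal protein genes that fell form a compact group below 0 on both axes, and the genes that rose and have a value in both batches all lie above 0 on both. The genes were called on both batches together, so this agreement is partly built in.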

How the data were processed

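Well-fed gravid hermaphrodites were dissected by the authors, who sequenced polyA RNA of single segments and oocytes. Reads were trimmed with Trim Galore and mapped with HISAT2 to WBcel235, and the authors deposited raw HTSeq counts (default settings) for the WS291 annotation, which are not normalised. The deposited TPM values were made by the authors with Salmon and summed per gene here. The fractions in the quality table were computed by the authors with QoRTs and custom scripts, which is also the source of batch and of the mark for use. Of the 46927 genes of the count table, 756 were dropped as mitochondrial, rRNA or correlated with msp genes, and the 92 spike-in sequences served only for scaling.

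Groups were taken from the sample labels and the worm from the same labels. Counts of the 30 libraries (2.1 to 21.1 M reads on genes, M being 1e6) were fitted with edgeR 4.0.16 in R 4.3.3 (filterByExpr at a minimum count of 10, TMM, robust quasi-likelihood F test) adjusting for batch and detection rate, the share of genes detected. A call needs a Benjamini-Hochberg adjusted p under 0.05 over all tested genes and a fold change above 1.5. Standard errors were derived from the log2 fold change and F, and levels are CPM with the TMM factors of this fit. Libraries of separate worms are separate animals. Because S4 and oocyte libraries of 1 worm come from the same animal, worm was also used as a block. The residuals of such libraries correlated with a mean r of 0.18 (9 pairs, -0.152 to 0.34) and those of different worms of 1 batch with -0.0681 (127 pairs). Quality measures were compared by 100000 permutations of side within batch, two-sided, with Python 3.11.15, numpy 2.4.6 and pandas 2.3.3, and figures were drawn with matplotlib 3.10.9. Alternatives were DESeq2 1.42.0, limma 3.58.1 with worm as a random block, other normalisations, filters, covariates and sets of libraries, and leaving out each library. The code was tested on simulated data.

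Named genes were, among calls whose average log2 CPM was 4 or more and whose sign was the same in batch A, the 8 with the largest increase and the 8 with the largest decrease, and from each list up to 4 called and 2 not called genes. Others are named as chosen after their values were seen. The members and the 29 lists were chosen with earlier results of these data known. Symbols that RefSeq gives were matched by position. Zygotes entered the stage medians and shares and the fit of all 8 stages. The correlation with msp genes was taken over all 146 libraries, zygotes and embryos included. Embryos entered nothing else.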

Additional observations from a re-analysis of the deposited data

Results flagged for a closer look

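Among the 6 libraries of the -3 oocyte, 129 values were examined for a library far from the others, of which chance would mark about 1 in 20. The library of worm J was the lowest in *glp-1*, the germline Notch receptor, at 162 CPM, the highest in *knl-2*, a centromere protein, at 155 CPM, and the highest in the share of sperm genes at 0.0563%. The library of worm H was the highest in *oma-2*, an oocyte translational regulator, at 8723 CPM, and that of worm 20 the highest in the shares of intestine genes (0.122%) and stress genes (0.117%). Worms H and J gave the only 2 libraries of the -3 oocyte in batch B, so batch and library cannot be told apart in their values. S4 and the -2 oocytes have more than 10 libraries and were not examined in this way.

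The change from S4 to the oocytes differed between the batches in a test of the difference itself (edgeR, batch by side). It was more positive in batch B for 353 genes and more negative for 700. Of the genes named here and called, *W01D2.1* (RefSeq *rpl-37.1*, a large subunit protein) differed by -1.91 on the log2 scale, *alh-11*, an aldehyde dehydrogenase, by -3.10, and *ddx-19*, a DEAD-box helicase, by -3.71. For *alh-11* and *ddx-19* these rest on S4 of worm J, at 3318 and 3856 CPM, while S4 of worm I was at 151 and 147 CPM and the batch B oocytes at 53.3 to 162 and 74.1 to 138. Without worm J their changes over both batches were -0.84 and -0.65 and did not pass (edgeR adjusted p = 0.0805 and 0.0942). *W01D2.1* was at 20123 CPM in worm J, 3129 in worm I and 593 to 1344 in the oocytes, and passed without worm J (-1.49).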

How the results depend on the processing

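The median of the ribosomal protein genes stayed below 0 in every alternative run. The 74 that fell became 69 to 76 when 1 library was left out, 0 in batch B alone (2 S4 libraries) and 0 with spike-in scaling, where spike-in reads ranged from 0.205 to 140 per 1000 reads. The 31 genes that rose and 147 that fell became 135 and 288 with DESeq2, 110 and 319 with all 8 stages in one fit, 324 and 404 without the low-count filter, 0 and 0 in batch B alone, 3 and 1 with spike-in scaling, 6 and 93 with the -3 oocytes alone, and 3 and 60 with worm as a replicate block. DESeq2 kept 30 of the 31 and 147 of the 147. Genes that rose were also 49 with all mapped libraries, 125 in batch A alone, 20 without the detection rate covariate, 15 with the oocytes of 1 worm summed and 17 with worm as a random block (147 fell). Genes that fell were also 83 with the -2 oocytes alone. Leaving out 1 library gave 18 to 53 that rose and 106 to 197 that fell, and the 106 came without S4 worm J. The cause of these differences was not tested, beyond the smaller sets of libraries. Of 61 called genes that the text may name, 32 kept their call without each library in turn. WBGene00014987 reversed to 0.66 in batch B alone. With worm as a replicate block, 19 of 60 of these genes that could be tested kept their call. With 6 libraries of the -3 oocyte and 2 of S4 in batch B, small differences were not detectable.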
